A study of Homo sapiens with 6 samples.

Results

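The 34 genes described here carry glucose from the cell surface to the mitochondrial matrix as pyruvate, or turn that pyruvate into lactate. They were selected by symbol as genes of these steps, with earlier results of these data known, and all 34 are among the 23026 genes of the normalized table. They comprise 2 glucose carriers, 9 genes of upper glycolysis, 3 PFKFB genes, 6 genes of lower glycolysis, 4 lactate genes, 3 pyruvate dehydrogenase kinases, and 7 genes of mitochondrial pyruvate entry and the pyruvate dehydrogenase complex. Expression was measured by stranded mRNA sequencing in T98G, an established human glioblastoma cell line, infected in suspension with a lentivirus encoding a short hairpin RNA, either a control (shControl) or a hairpin against the protein kinase DYRK1A (shDYRK1A). Both groups were selected with puromycin and then left to recover without it. Each group had 3 libraries, labelled 1A, 1B and 1C. The labels do not say which hairpin against DYRK1A was used, nor whether the libraries of a group were separate infections, so the p-values below measure the spread between these libraries only. The comparison asks how the transcripts of the pathway stood after DYRK1A silencing.

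Glycolysis splits glucose into pyruvate in the cytosol. Hexokinases trap glucose inside the cell, phosphofructokinases commit it to the pathway, and the lower enzymes recover ATP and NADH. Pyruvate is then either reduced to lactate by lactate dehydrogenase, which regenerates NAD+ and whose product leaves the cell through monocarboxylate carriers, or imported into mitochondria and oxidized by the pyruvate dehydrogenase complex, which the PDK kinases switch off. Many tumour cells, glioblastoma cells among them, are known to make lactate also when oxygen is present, and several genes of the pathway are textbook targets of the hypoxia-inducible factors (HIFs) and of MYC. Most steps are encoded by more than 1 gene, and the isozymes differ in kinetics and in regulation.

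Sequences at the start of the genes are given first for LDHA with LDHB and PDK1 with PDK2, isozymes at the branch between lactate and pyruvate oxidation whose fold changes differed. RefSeq start-site windows (GRCh38.p14, 300 bases each, mostly upstream of the start) were listed for 31 of the 34 genes, those without an entry being SLC16A1, SLC2A3 and PFKFB2. Of several windows of a gene, the 1 with the most matches to ACGTG is shown. They lie at chr11:18394313-18394612 on the plus strand for LDHA, chr12:21657793-21658092 on the minus strand for LDHB, chr2:172555840-172556139 on the plus strand for PDK1 and chr17:50095101-50095400 on the plus strand for PDK2. Capitals mark ACGTG on either strand (CACGT on the printed strand is the same word on the other), the core of the element to which HIFs bind.
LDHA: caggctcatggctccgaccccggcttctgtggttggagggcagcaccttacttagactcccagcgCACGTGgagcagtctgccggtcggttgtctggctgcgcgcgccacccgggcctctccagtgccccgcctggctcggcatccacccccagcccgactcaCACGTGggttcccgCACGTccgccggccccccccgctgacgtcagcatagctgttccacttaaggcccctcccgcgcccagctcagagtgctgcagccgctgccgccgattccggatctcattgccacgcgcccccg
LDHB: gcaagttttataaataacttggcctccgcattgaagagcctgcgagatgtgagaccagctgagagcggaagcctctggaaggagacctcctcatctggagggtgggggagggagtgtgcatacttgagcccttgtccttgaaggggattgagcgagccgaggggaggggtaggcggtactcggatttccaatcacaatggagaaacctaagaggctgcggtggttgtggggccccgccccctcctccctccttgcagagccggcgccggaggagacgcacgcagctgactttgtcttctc
PDK1: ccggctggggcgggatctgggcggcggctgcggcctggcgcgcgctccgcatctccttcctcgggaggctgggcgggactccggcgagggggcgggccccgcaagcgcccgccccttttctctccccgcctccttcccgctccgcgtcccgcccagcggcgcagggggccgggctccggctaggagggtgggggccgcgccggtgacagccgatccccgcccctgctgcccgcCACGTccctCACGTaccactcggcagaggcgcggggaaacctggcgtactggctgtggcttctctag
PDK2: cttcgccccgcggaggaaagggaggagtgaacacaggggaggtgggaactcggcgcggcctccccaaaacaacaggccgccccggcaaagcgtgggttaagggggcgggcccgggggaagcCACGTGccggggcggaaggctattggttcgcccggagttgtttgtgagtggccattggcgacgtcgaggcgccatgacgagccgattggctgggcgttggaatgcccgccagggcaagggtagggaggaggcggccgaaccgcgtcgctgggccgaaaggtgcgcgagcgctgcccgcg
The LDHA window holds 5 matches, the LDHB window 0, and the PDK1 and PDK2 windows 2 each. A run of CACGTG counts as 2, as it reads the same on both strands.

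Among the 31 genes with a window, 19 had ACGTG in at least 1 window (61.3%), against 24.9% of all 27305 genes listed and 33.7% of the 7585 listed genes that were tested here. Counted over windows instead, since some genes have several, 23 of the 63 windows of the pathway held it (36.5%), against 21.4% of all 35116 windows. CACGTG, the E-box, which overlaps ACGTG, was found in 8 of the 31 genes (25.8%), in 8.77% of all genes and in 13.1% of the tested ones. CTCGCGAG, the centre of the palindrome that the study links to DYRK1A, was in none of the 31 genes, in 1.23% of all genes and in 2.78% of the tested ones. With a word this rare, its absence from 31 genes says little. HK2 had ACGTG in both of its 2 windows and HK1 in none of 7. These letters describe the windows and say nothing of what binds there.

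Human gene counts ranged from 33708297 to 42154438 per library. The size factors derived by the authors from the admixed fly cells were higher in shDYRK1A (1.06 to 1.21) than in shControl (0.821 to 1.03), so spike-in scaled counts ran lower there for most genes, and the median log2 fold change over the 9683 tested genes was -0.40. By the paper's methods, a fixed number of fly cells was added to equal numbers of T98G cells, which sets this scale per counted cell. What lay behind the shift was not tested. For a single gene, bulk RNA cannot tell fewer cells that express it from less of its RNA in each. shDYRK1A 1B stood apart from the other libraries, with the fewest counts and with 15.6% of its reads unmapped, against 8.44 to 11.9%. The target itself, DYRK1A, stood at 2227, 2234 and 1895 after spike-in normalization in the shControl libraries 1A, 1B and 1C, against 1482, 1056 and 1285 in those of shDYRK1A, a log2 fold change of -0.73 (SE 0.15, adjusted p = 5.34e-06). Relative to the bulk of human transcripts (TMM scaling), DYRK1A was at -0.34 (SE 0.06, adjusted p = 0.000547), or 79.1% of shControl. On that scale 11.5% of all tested genes were lower still. Of 10 markers of glial and neural lineage, 5 (OLIG2, NES, VIM, CD44 and SLC1A3) exceeded 1 CPM (counts scaled to library size) in each library, while GFAP reached at most 4 counts, and S100B and AQP4 had 0, where 3 counts would have been 0.0712 to 0.089 CPM. Endothelial and oligodendrocyte markers (3 each) summed to less than 1 CPM. The neuronal list (3 genes) summed to 10.4 to 11.7 CPM in shControl and 5.99 to 6.95 CPM in shDYRK1A, nearly all of it SNAP25 with RBFOX3 at or near 0, and 1 of the 4 macrophage markers, ITGAM, was at 3.82 to 5.01 CPM. The part of SNAP25 in the results below was not tested.

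The genes covered a wide range of levels. Per kilobase of exon, GAPDH, which oxidizes glyceraldehyde 3-phosphate, led with a mean of 120038 spike-in normalized counts in shControl, followed by PKM, TPI1 and ENO1 at 29942, 29657 and 29238. At the low end stood PFKFB2 at 48.2 and ALDOC, the brain aldolase, at 26.6. The lengths merge all annotated exons of a gene and can exceed the expressed transcript, so ranks between genes are approximate. With 102, 68.1 and 63.3 normalized counts in shControl and 56.7, 64.9 and 56.8 in shDYRK1A, ALDOC was under the expression filter of 10 CPM and was not tested. Altogether the 34 genes took 2.97, 2.97 and 3.02% of the human counts in shControl and 2.71, 2.87 and 2.76% in shDYRK1A. The means were 2.99% ± 0.0263 and 2.78% ± 0.0822 (SD, n = 3 each), and the groups did not overlap. GAPDH and PKM alone took 0.771 and 0.581% of the human counts, averaged over the 6 libraries.

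**Figure D1:**
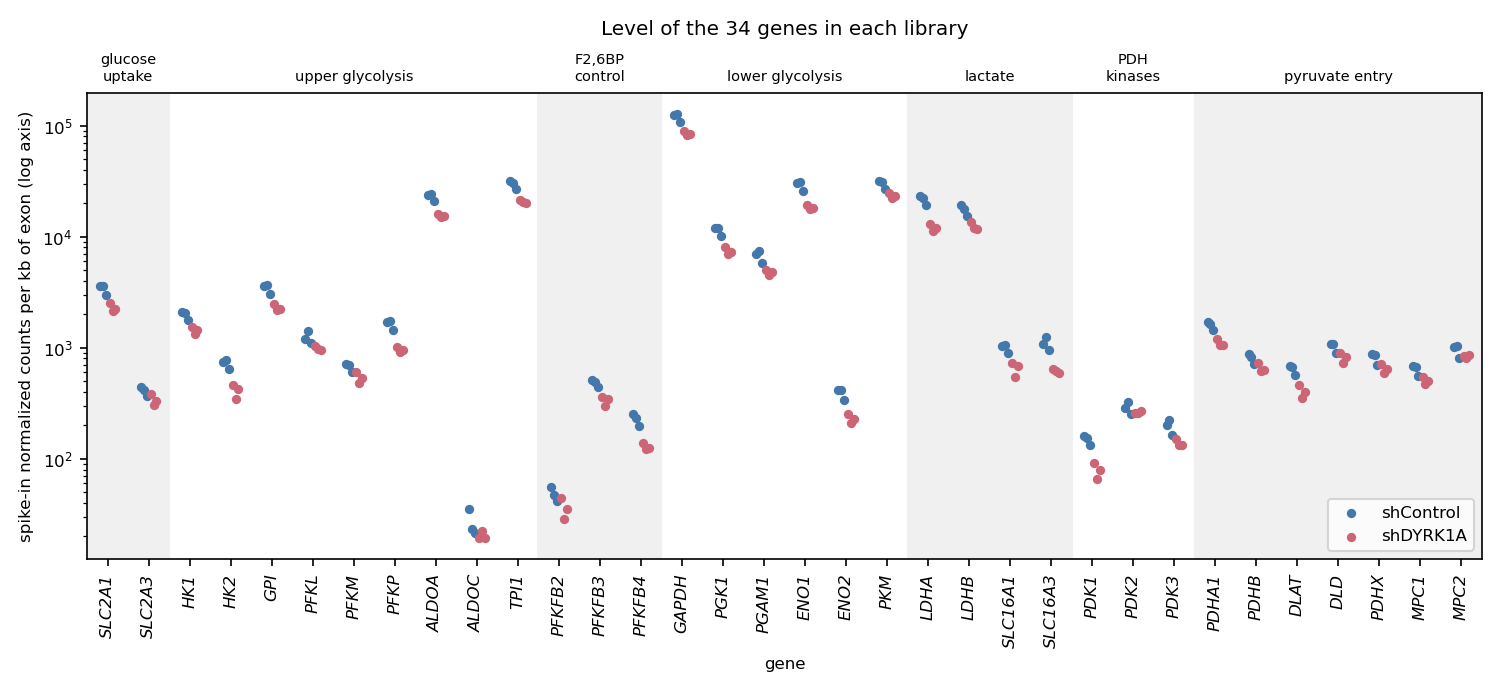
Spike-in normalized counts per kilobase of exon (log axis) of the 34 genes, grouped by role, with 1 point per library (blue, shControl; red, shDYRK1A). Levels run from 26.6 (ALDOC) to 120038 (GAPDH) in the shControl means, and the shDYRK1A points sit below the shControl points without overlap for 25 of the 33 tested genes.

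On the spike-in scale each of the 33 tested genes had a negative log2 fold change, from -0.91 (PDK1) to -0.13 (PDK2), with a median of -0.52 against -0.40 for all tested genes. An adjusted p below 0.05 was reached by 30 of them, all lower, and by 63.4% of all genes in that direction. For 25 of the 33 the shDYRK1A libraries all lay below the controls, against 63.6% of all genes. Past the call of the study, which also asks for a log2 fold change beyond 0.7, were 7 genes (21.2%), against 14.3% of all genes: PDK1, LDHA, PFKFB4, SLC16A3, HK2, PFKP and ENO2. None was called higher, as none reached an unadjusted p below 0.05 in that direction, with 0.279% of all genes called higher. ENO1 (-0.66) and DLAT (-0.66) were the nearest to the threshold among those not called. The same 7 were called whichever library was left out, joined by DLAT and ENO1 without shControl 1C and by DLAT without shDYRK1A 1A. Of the 30 genes with an adjusted p below 0.05, 9 (PFKL, PFKM, PFKFB2, PKM, PDK3, PDHB, DLD, PDHX and MPC1) no longer had it without shControl 1B (0.0519 to 0.273) or without shDYRK1A 1C (0.0511 to 0.209), and 8 of these, all but PDK3, without shControl 1A or shDYRK1A 1B (0.0608 to 0.252).

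The 7 called genes are protein coding and lie, in the coordinates of the authors' table (hg38), at chr2:172555373-172608669 on the plus strand (PDK1), chr11:18394388-18408425 on the plus strand (LDHA), chr3:48517684-48562015 on the minus strand (PFKFB4), chr17:82228397-82261129 on the plus strand (SLC16A3), chr2:74833981-74893359 on the plus strand (HK2), chr10:3066333-3137712 on the plus strand (PFKP) and chr12:6913745-6923698 on the plus strand (ENO2). Of these, 6 had ACGTG in a start-site window, the exception being PFKFB4, against 61.3% of all members and 33.7% of the tested genes listed. Among the genes that were lower relative to the bulk of human transcripts with TMM scaling, 10 of the 14 with a window had it, and so did 8 of the 16 other tested genes with a window. Genes with more windows have more chances of a match, for which these counts were not adjusted. A link between the word and the fold changes was not tested.

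Relative to the bulk of human transcripts (TMM scaling, which does not use the fly reads and centres all genes near 0), the pathway divided. Here 15 of the 33 genes were lower at an adjusted p below 0.05, against 28.9% of all genes, 3 were higher, against 27.1%, and 15 passed in neither direction. The groups did not overlap, with shDYRK1A lower, for 17 genes (32.8% of all genes), and with shDYRK1A higher for 8 (30.5% of all genes). The median over the members was -0.11 and that of all genes was 0.00. The 7 genes called on the spike-in scale were the 7 lowest here, between -0.52 and -0.36. Both scalings use the same counts and move every gene of a library alike, so a like order is built in. By role the median was -0.31 for the lactate genes, -0.15 for lower glycolysis, -0.14 for upper glycolysis, -0.12 for the PFKFB genes, -0.09 for the PDK kinases, -0.01 for glucose uptake and 0.08 for pyruvate entry. The sign turned between the scalings for 10 genes, which were negative with spike-in scaling and positive with TMM: SLC2A3, PFKL, PFKM, PKM, PDK2, PDHB, DLD, PDHX, MPC1 and MPC2.

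**Figure D2:**
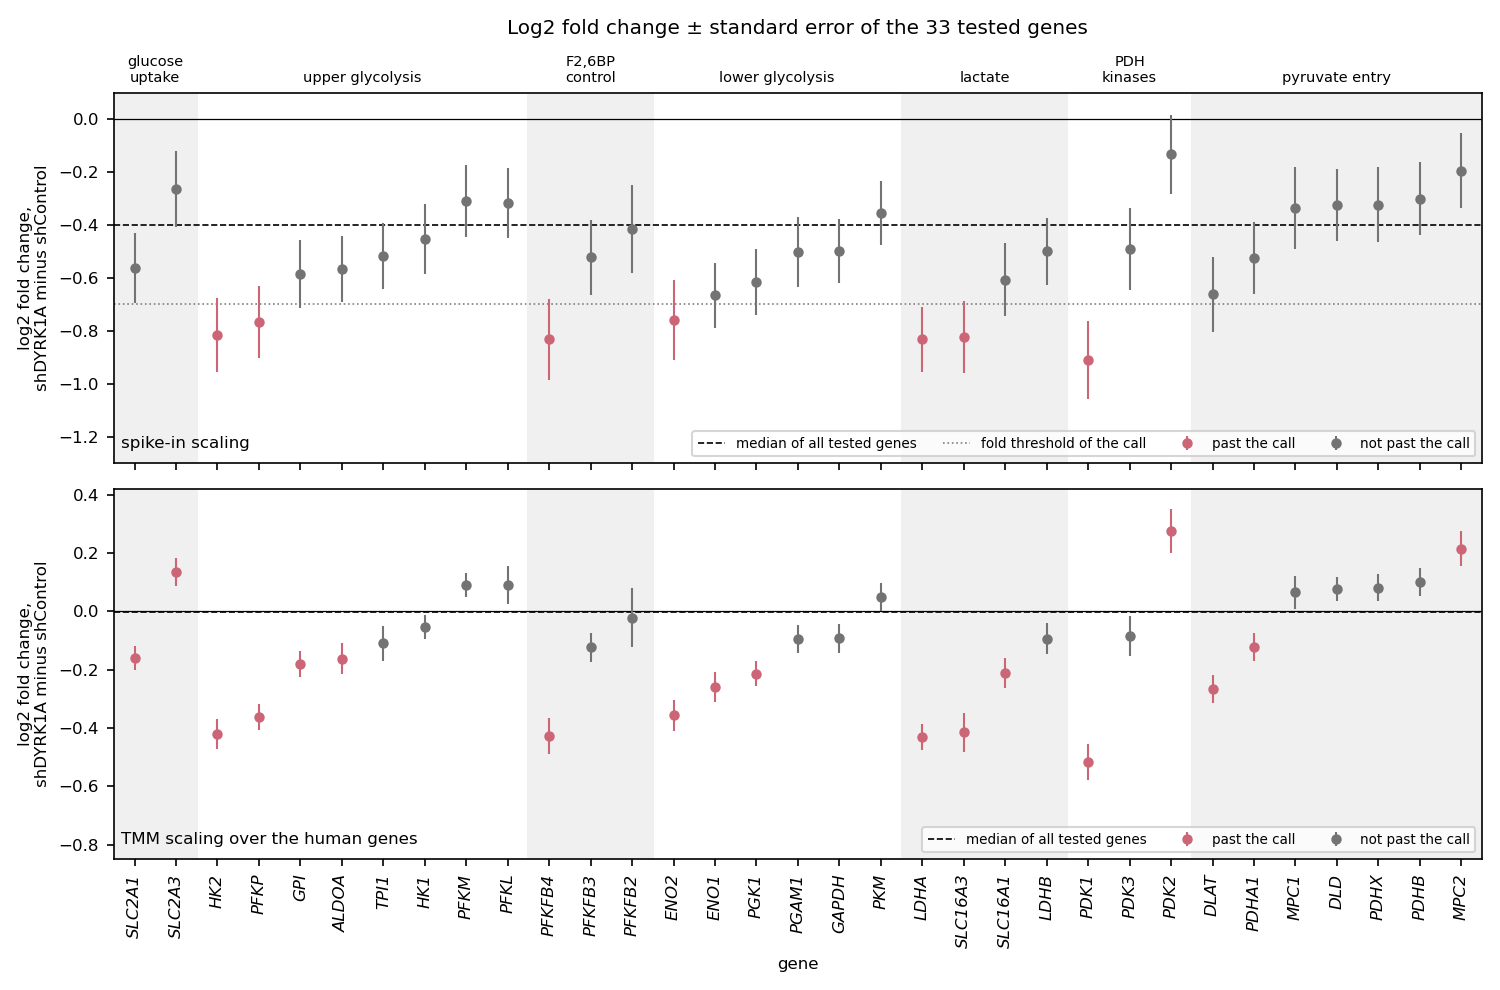
Log2 fold change, shDYRK1A minus shControl, with its standard error for the 33 tested genes by role, with spike-in scaling (top) and TMM scaling (bottom). Red points passed the call of that panel, the dashed line is the median of all tested genes (-0.40 and 0.00) and the dotted line the fold threshold of 0.7. PDK1 is the lowest in both panels, and PDK2 the highest in both.

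Of the glucose carriers, SLC2A1 (GLUT1) had 3402 normalized counts per kilobase in shControl and SLC2A3 (GLUT3), the high-affinity neuronal carrier, 408, with SLC2A10 of the further genes at 577. On the TMM scale SLC2A1 had 358, 361 and 353 CPM in shControl and 319, 326 and 314 in shDYRK1A. SLC2A3 had 57.1, 54.3 and 56.4 CPM in shControl and 63.1, 60.5 and 60.5 in shDYRK1A. The groups were apart for both genes, in opposite directions. SLC2A1 fell by 0.16 relative to the transcriptome (SE 0.04, adjusted p = 0.00526) and SLC2A3 rose by 0.13 (SE 0.05, adjusted p = 0.0332), a call that was lost without shControl 1A, 1B or 1C or shDYRK1A 1A (adjusted p from 0.0505 to 0.13). With spike-in scaling SLC2A1 fell by 0.56 (adjusted p = 9.39e-05), and SLC2A3 stood at -0.26 (adjusted p = 0.0904).

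Hexokinase 2, the inducible isoform that is prominent in tumours, was lower in shDYRK1A. Normalized counts of HK2 were 4537, 4673 and 3937 in the shControl libraries 1A, 1B and 1C, against 2786, 2091 and 2588 after silencing. Each shDYRK1A library was below each shControl library, with 1B the lowest. The fold change was -0.82 (SE 0.14, adjusted p = 9.75e-08) with spike-in scaling and -0.42 (SE 0.05, adjusted p = 4.25e-05) with TMM. Per kilobase, HK2 was 0.366 times HK1, the ubiquitous isoform, in shControl. HK1 stood at -0.45 (adjusted p = 0.00173) with spike-in scaling and -0.05 (adjusted p = 0.3) with TMM.

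Of the 3 phosphofructokinase genes, PFKP, the platelet type, was the one called. Its normalized counts were 8231, 8497 and 7054 in shControl against 4931, 4461 and 4594 in shDYRK1A, again without overlap. It fell by 0.77 (SE 0.14, adjusted p = 2.2e-07) with spike-in scaling and by 0.36 (SE 0.05, adjusted p = 4.49e-05) with TMM. PFKL (liver) and PFKM (muscle) were at -0.32 and -0.31 with spike-in scaling and at 0.09 each with TMM, where neither passed (adjusted p = 0.247 and 0.0793).

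The remaining genes of upper glycolysis moved less. GPI, which turns glucose 6-phosphate into the fructose form, had 802, 827 and 825 TMM-scaled CPM in shControl and 709, 750.1 and 704 in shDYRK1A. ALDOA, the main aldolase, had 1947, 2015 and 2051 in shControl and 1676, 1920.4 and 1778 in shDYRK1A, where 1B lay close to the controls. Both passed relative to the transcriptome, GPI at -0.18 (adjusted p = 0.00461) and ALDOA at -0.16 (adjusted p = 0.0243). The call of ALDOA was lost without shControl 1B or 1C or shDYRK1A 1A or 1C (adjusted p from 0.0596 to 0.114). TPI1, the triose phosphate isomerase, was at -0.11 (adjusted p = 0.132) with TMM and -0.52 (adjusted p = 0.000157) with spike-in scaling. Pooled over all other genes of the same strand, annotated exons cover 42.3% of the exonic bases of ALDOA, so its counts are less certain.

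The PFKFB enzymes make and break the sugar bisphosphate that activates phosphofructokinase. PFKFB4 had 1558, 1433 and 1206 normalized counts in shControl and 848, 745 and 764 in shDYRK1A. These are group means of 1399 ± 178 and 786 ± 54.7 (SD, n = 3 each) that did not overlap. It was lower by both scalings, at -0.83 (SE 0.15, adjusted p = 6.99e-07) and, with TMM, -0.43 (SE 0.06, adjusted p = 0.000116). PFKFB3, the isoform with the strongest kinase activity and the most abundant here, stood at -0.52 (adjusted p = 0.000808) and, with TMM, -0.12 (adjusted p = 0.0541). PFKFB2 was scarce and overlapped between groups on both scales, at -0.42 (adjusted p = 0.0226) with spike-in scaling and -0.02 (adjusted p = 0.868) with TMM.

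Lower glycolysis held the most abundant transcripts. GAPDH had 374042, 379764 and 319697 normalized counts in shControl and 266676, 244855 and 248531 in shDYRK1A. Without the spike-in its TMM-scaled CPM were 7870.4, 7992 and 8027 against 7120.5, 7937 and 7339, so the groups were apart on the first scale and overlapped on the second. GAPDH, often used as a reference gene, was thus at 70.8% of its shControl level with spike-in scaling (log2 fold change -0.50, adjusted p = 0.000139) and at 93.8% with TMM (-0.09, adjusted p = 0.14). Counts of GAPDH and PGAM1 are less certain, since 62 and 13 pseudogenes are named after them.

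ENO1 and PGK1, the main enolase and an ATP-producing kinase, fell relative to the transcriptome. TMM-scaled CPM of ENO1 were 3416, 3438 and 3440.3 in shControl against 2716, 3066 and 2823 in shDYRK1A, and those of PGK1 were 1393, 1392 and 1411 against 1184, 1241 and 1194. Neither gene overlapped between groups, and 1B was the highest shDYRK1A library in both. The TMM fold changes were -0.26 (SE 0.05, adjusted p = 0.00126) and -0.21 (SE 0.04, adjusted p = 0.00132).

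ENO2, the neuronal enolase, was the member of lower glycolysis that was called. It had 1782, 1783 and 1447 normalized counts in shControl and 1075, 907 and 977 in shDYRK1A, each below each control. The log2 fold change was -0.76 (SE 0.15, adjusted p = 4.37e-06) with spike-in scaling and -0.36 (SE 0.05, adjusted p = 0.000142) with TMM. PGAM1, the mutase, was at -0.50 (adjusted p = 0.000481) and, with TMM, -0.10 (adjusted p = 0.107).

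PKM, the pyruvate kinase at the end of the pathway, lay near the median of all genes on both scales. Its normalized counts were 274260.0, 264629 and 230996 in shControl against 212727, 190188 and 199127 in shDYRK1A, apart by group. On the TMM scale they were 5771, 5569 and 5799.7 CPM against 5680.0, 6165 and 5880.4, with overlap. Its fold change of -0.35 (adjusted p = 0.00704) with spike-in scaling turned to 0.05 (adjusted p = 0.414) with TMM. The files count whole genes, so the splice forms of PKM were not separated.

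The 4 member genes of lactate production and export made up the role with the lowest median. This does not extend to the tested lactate genes of the further list described below. Of these, SLC16A4, SLC16A7 and BSG were higher with TMM, by 0.48, 0.42 and 0.21 (adjusted p = 7.85e-06, 0.00139 and 0.00959). With spike-in scaling they stood at 0.09, 0.03 and -0.20, none passing (adjusted p = 0.573, 0.867 and 0.161). LDHA, the subunit that favours lactate formation, had 144308, 137512 and 118677 normalized counts in shControl and 81269, 69552 and 74036 in shDYRK1A. The highest shDYRK1A library was well below the lowest control. LDHA was at 56.1% of the shControl level with spike-in scaling (-0.83, SE 0.12, adjusted p = 5.23e-10) and at 74.2% with TMM (-0.43, SE 0.04, adjusted p = 1.11e-05). LDHB, which favours the reverse reaction, had 58162, 53301 and 46257 normalized counts against 40321, 36012 and 35286. It did not overlap on that scale (-0.50, adjusted p = 0.000305), but did with TMM (-0.09, adjusted p = 0.159). Pooled exons of other genes on the same strand cover 33.4% of the exonic bases of LDHB.

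SLC16A3 (MCT4), the carrier of lactate efflux, was called as well. It had 9659, 11224 and 8606 normalized counts in shControl and 5759, 5538 and 5365 in shDYRK1A, without overlap. The fold change was -0.82 (SE 0.13, adjusted p = 1.83e-08) with spike-in scaling and -0.42 (SE 0.07, adjusted p = 0.000252) with TMM. SLC16A1 (MCT1), which carries lactate either way, had 115, 117 and 119.7 TMM-scaled CPM in shControl and 104, 94.1 and 106 in shDYRK1A, and fell by 0.21 (SE 0.05, adjusted p = 0.00418) on that scale.

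The kinases that switch off the pyruvate dehydrogenase complex held both the lowest and the highest fold change of the set. Normalized counts of PDK1 were 2385, 2273 and 1984 in the shControl libraries 1A, 1B and 1C, against 1373, 968 and 1190.2 after silencing. All of the latter lay below the controls, 1B the lowest. It fell by 0.91 (SE 0.15, adjusted p = 1.43e-08) with spike-in scaling and by 0.52 (SE 0.06, adjusted p = 3.54e-05) with TMM, where 4.8% of all tested genes were lower still. PDK2 had 32.9, 37.2 and 34.8 TMM-scaled CPM in shControl and 37.4, 45.6 and 44 in shDYRK1A, apart by a narrow margin between shControl 1B and shDYRK1A 1A. Relative to the transcriptome it rose by 0.28 (SE 0.08, adjusted p = 0.00923), and with spike-in scaling it stood at -0.13 (SE 0.15, adjusted p = 0.42). PDK3 was at -0.49 (adjusted p = 0.00385) and, with TMM, -0.09 (adjusted p = 0.303). On the opposite strand, pooled exons of other genes cover 38.6% of the exonic bases of PDK2. The library kit keeps strand, and whether the counting used it is not given in the sources used here.

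In the pyruvate dehydrogenase complex, DLAT, the E2 core, had the lowest fold change. It had 69.4, 68.7 and 69.5 TMM-scaled CPM in shControl and 59.7, 55.4 and 57.6 in shDYRK1A, well apart, and fell by 0.26 (SE 0.05, adjusted p = 0.000645) on that scale and by 0.66 (adjusted p = 2.18e-05) with spike-in scaling. PDHA1, the E1 alpha subunit that PDKs phosphorylate, had 162, 153 and 162 CPM against 145, 154 and 139. These overlapped, and its fall of 0.12 was just inside the limit (adjusted p = 0.0482) and was lost without shControl 1A or 1C or shDYRK1A 1A or 1C (adjusted p from 0.118 to 0.171). MPC2, a subunit of the mitochondrial pyruvate carrier, had 54.2, 56 and 52.3 CPM in shControl and 57.6, 66.6 and 64.4 in shDYRK1A. It did not overlap and rose by 0.22 (SE 0.06, adjusted p = 0.00962) relative to the transcriptome, or by 0.19 without shControl 1C (adjusted p = 0.0516), whereas with spike-in scaling it was at -0.19 (adjusted p = 0.216). The exonic bases of MPC2 and PDHA1 overlap genes of the other strand for 22.5 and 21.3% of their length.

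The other 4 genes of pyruvate entry, PDHB (E1 beta), DLD (E3), PDHX (which anchors E3) and MPC1 (the partner of MPC2), lay between 0.07 and 0.10 with TMM, none passing (adjusted p from 0.0918 to 0.346). With spike-in scaling they lay between -0.34 and -0.30, with adjusted p from 0.0301 to 0.0497, which none of the 4 kept below 0.05 with a GC offset (0.0893 to 0.16). On the TMM scale shDYRK1A was above shControl without overlap in all 4, as it was for 30.5% of all tested genes.

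**Figure D3:**
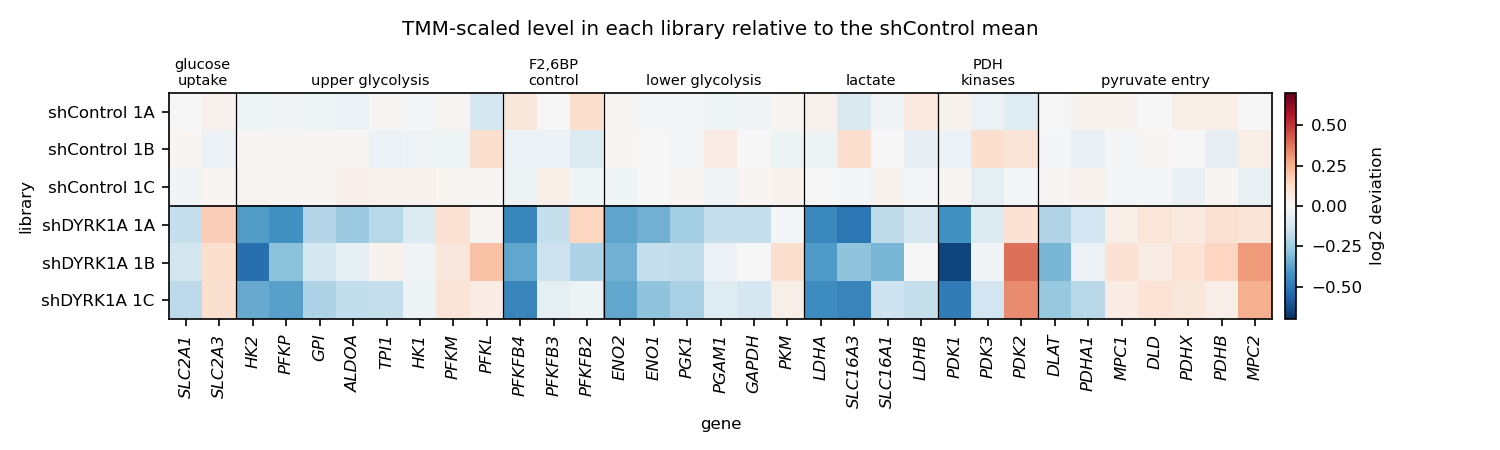
Log2 deviation of each tested gene from its shControl mean in each of the 6 libraries, on TMM-scaled CPM (blue lower, red higher), genes grouped by role and ordered by fold change. The shDYRK1A rows are darkest blue at PDK1, HK2, LDHA, SLC16A3 and PFKFB4 and red at PDK2 and MPC2, and the median over the 33 genes is -0.16, -0.04 and -0.14 in 1A, 1B and 1C.

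The shDYRK1A libraries did not move evenly. Relative to the shControl mean, 23, 22 and 23 of the 33 genes were lower in 1A, 1B and 1C on the TMM scale, against 50.4, 50.8 and 50.5% of all tested genes, with medians of -0.16, -0.04 and -0.14, while those of the shControl libraries were between -0.00044 and 0.0069. In 1B, GAPDH (-0.0047), LDHB (-0.0011), TPI1 (0.02), PGAM1 (-0.04) and ALDOA (-0.06) were near the controls, and PKM (0.11) was above them. LDHA (-0.40), PGK1 (-0.17), ENO1 (-0.16) and GPI (-0.12) were below the controls. PDK1 (-0.65) and HK2 (-0.53) were lower in 1B than in the other 2. Without 1B, 7 members were called lower with spike-in scaling (9.36% of all genes), and relative to the transcriptome 19 were lower (30.5% of all genes) and 5 higher (28.7% of all genes).

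Ratios of isozymes within a library need no scaling. Of 8 such ratios, 5 were lower in all shDYRK1A libraries than in any control, and 3 overlapped. Of all tested genes taken singly, 32.8% lay apart lower and 30.5% higher on the TMM scale. The share for ratios of other gene pairs was not computed, so the count of 5 is a description only. The 5 numerators, HK2, SLC2A1, LDHA, PFKP and PDK1, were each lower with TMM on the same counts. These ratios are thus not separate evidence from those calls. The log2 ratio of LDHA to LDHB was 1.31, 1.37 and 1.36 in shControl and 1.01, 0.95 and 1.07 in shDYRK1A. In raw counts LDHA went from 2.54 times LDHB to 2.01 times, and per kilobase of merged exons from 1.22 times to 0.967 times. The latter level rests on merged lengths of 6.21 kb for LDHA and 2.98 kb for LDHB, which need not be those of the expressed transcripts. The ratio of HK2 to HK1 was -1.53, -1.47 and -1.52 on the log2 scale in shControl and -1.80, -2.0 and -1.82 in shDYRK1A. Both ratios were apart by group, by -0.34 and -0.37 in the means.

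For PFKP over the sum of PFKL and PFKM the log2 ratio was -0.95, -1.06 and -1.01 in shControl and -1.47, -1.46 and -1.45 in shDYRK1A. PFKP supplied 46.3% of the phosphofructokinase counts per kilobase in shControl and 38.6% in shDYRK1A. PDK1 over the sum of PDK2 and PDK3 showed the greatest shift of the 8, from -0.10, -0.33 and -0.15 to -0.65, -1.09 and -0.85. Its share of the PDK counts per kilobase was 23.7% in shControl and 16.4% in shDYRK1A. The level of this share depends on the merged exon lengths, 14.9 kb for PDK1, 5.48 kb for PDK2 and 4.95 kb for PDK3. The ratio of SLC2A1 to SLC2A3 was 2.65, 2.73 and 2.65 in shControl and 2.34, 2.43 and 2.37 in shDYRK1A.

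The means of these 5 ratios differed by -0.29 to -0.67. In the two-sided exact permutation test each reached p = 0.1, which is the lowest value possible with 3 libraries per group, and 0.16 after Benjamini-Hochberg adjustment over the 8, so this test cannot place them below 0.05. Differences of 0.10 for ENO1 over ENO2 (exact p = 0.2), -0.20 for SLC16A3 over SLC16A1 (exact p = 0.3) and -0.21 for ALDOA over ALDOC (exact p = 0.5) were within overlapping groups. For the enolases both genes were lower. For the carriers, shDYRK1A 1B (0.93) lay among the controls (0.82, 1.01 and 0.85), apart from 1A and 1C (0.57 each).

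**Figure D4:**
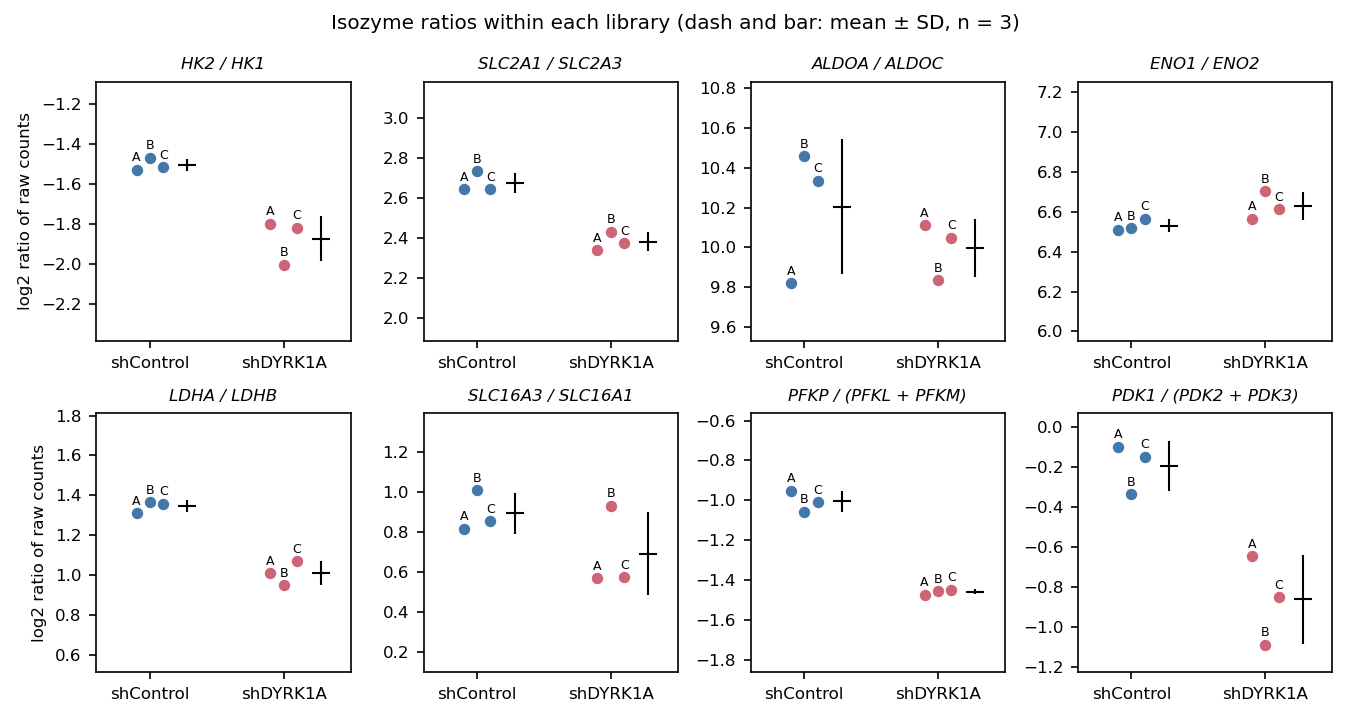
Log2 ratio of raw counts of isozyme genes in each library (points, lettered A to C for 1A to 1C) with the mean and SD of each group (n = 3, black). In 5 panels (HK2, SLC2A1, LDHA, PFKP and PDK1 as numerators) all shDYRK1A points lie below all shControl points, while in the other 3 the groups overlap.

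A list of 61 further genes of sugar transport, glycolysis, lactate and pyruvate handling, glycogen and adjoining branches was compared in the same fits. Of these, 30 passed the expression filter. With spike-in scaling 5 were called lower (14.3% of all genes) and 0 higher, as none reached an unadjusted p below 0.05 in the higher direction, and their median log2 fold change was -0.43 against -0.40 for all genes. With TMM 11 were lower (28.9% of all genes) and 11 higher (27.1% of all genes), and the median was -0.02.

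Called lower were GPT2, the mitochondrial alanine transaminase, PDP2 and PDP1, the catalytic subunits of the phosphatases that oppose the PDKs, PCK2, the mitochondrial enzyme that makes phosphoenolpyruvate, and SLC2A6, a carrier of the glucose transporter family. GPT2 had 6082, 6023 and 4992 normalized counts in shControl and 3041, 2396 and 2603 in shDYRK1A (log2 fold change -1.09, SE 0.14, adjusted p = 4.62e-13). PDP2 had 1614, 1600.0 and 1338 against 937, 706 and 826 (-0.88, SE 0.15, adjusted p = 1.24e-07). In both, each shDYRK1A library was below each control. PDP1 was at -0.83, PCK2 at -0.86 and SLC2A6 at -0.72 (adjusted p = 1.24e-07, 2.19e-07 and 3.09e-05), also without overlap. With TMM, on the same counts, all 5 lay between -0.69 and -0.31.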

How the data were processed

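Messenger RNA of 6 libraries was analysed, 3 per group, with groups and replicate letters read from their titles. The authors deposited raw read counts per gene for each library (58174 identifiers), from TruSeq stranded paired-end libraries. The submitters' processing notes name STAR, DESeq2, hg38 and dm3, without versions. Summary lines (unmapped, multimapping, no feature, ambiguous; 8.44 to 15.6%, 2.26 to 2.49%, 3.66 to 4.81% and 3.42 to 3.59% of reads) stayed out of library sizes. They also deposited a normalized signal for 23026 genes, which equals the raw counts divided by 1 size factor per library, derived by the authors from fly reads. Another table holds the authors' own DESeq2 fold changes and p-values, and was not used. Columns that matched no sample numbered 0.

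Genes with a mean above 10 CPM of the scaled library (9683) entered the robust quasi-likelihood test of edgeR 4.0.16 (glmQLFit, then glmQLFTest) in R 4.3.3, with those size factors or with TMM, and p-values were adjusted by Benjamini-Hochberg over all 9683. Standard errors are the fold change over the square root of F. With size factors, a call needed a log2 fold change beyond 0.7 with its adjusted p below 0.05, and with TMM the adjusted p alone. For isozyme ratios an exact permutation test (two-sided) over the libraries was used (scipy 1.17.1). The precision set by depth covers counting error only, as the reads carry no molecular identifiers and several can come from 1 molecule. Exon lengths and overlaps come from GENCODE v29, whose coordinates equal the authors' for 95.8% of genes and 27 of the 34 members. A length is that of all annotated exons of a gene merged, and an overlap is pooled over all other genes of a strand. The edgeR test with spike-in size factors was tested on simulated counts, and the other fits were not.

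The members, the list of 61 further genes and the markers were chosen with earlier results of these data known. Values in every library are given for members called with either scaling and for GAPDH, LDHA, LDHB, HK2, PKM and PDK1. For the other genes of the pathway those called are named. Alternatives were other scalings (median of ratios), DESeq2 1.42.0, edgeR's filterByExpr, no filter, a GC offset (spline of 4 degrees of freedom), the replicate letter as a block, other thresholds and leaving out each library.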

Additional observations from a re-analysis of the deposited data

How the results depend on the processing

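The calls with a fold threshold depended on the spike-in scale. With TMM or median-of-ratios scaling, 0 members and 0 of the further pathway genes passed the call with a fold threshold of 0.7 in edgeR, although all 7 called members kept an adjusted p below 0.05. With the adjusted p alone, 30 members and 18 further genes were lower with spike-in scaling. The further genes lower numbered 9 with filterByExpr and 9 with no filter, and 4 to 9 when a library was left out (9 without shDYRK1A 1A). Of the members relative to the transcriptome, 7 were lower and 0 higher when the log2 fold change also had to exceed 0.3, and without a library 1 to 5 were higher (1 without shControl 1C, 5 without shDYRK1A 1B). The median of the members minus that of all genes, -0.11 as reported, was -0.15 with a GC offset, -0.11 with TMM or median of ratios, -0.14 with filterByExpr, -0.17 with no filter and -0.14 to -0.089 without a library.

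Under TMM and median of ratios, 10 members turned positive, with log2 fold changes of 0.13 and 0.14 for SLC2A3, 0.091 and 0.097 for PFKL, 0.090 and 0.096 for PFKM, 0.048 and 0.055 for PKM, 0.28 and 0.28 for PDK2, 0.10 and 0.11 for PDHB, 0.076 and 0.083 for DLD, 0.081 and 0.087 for PDHX, 0.065 and 0.071 for MPC1 and 0.22 and 0.22 for MPC2. This follows from the scaling itself, which moves every gene of a library alike. PDHA1 relative to the transcriptome was not called with DESeq2 (adjusted p = 0.0653) or median of ratios (adjusted p = 0.0608), nor was SLC2A3 with filterByExpr (adjusted p = 0.113) or no filter (adjusted p = 0.343). With spike-in scaling the adjusted p rose above 0.05 with the GC offset for PDHB (0.093), DLD (0.16), PDHX (0.0895) and MPC1 (0.0893), with filterByExpr for PDHB (0.0595) and MPC1 (0.0555), and with no filter for these 4 and PFKL, PFKM and PFKFB2 (0.0535 to 0.101).

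The replicate letters were not taken as pairs. Deviations from the group means correlated by 0.152, 0.0728 and 0.128 between libraries of the same letter, and every library correlated best with its own letter. With the letter as a replicate block 7 members were called lower with spike-in scaling, and 16 were lower and 3 higher relative to the transcriptome. The block took the spike-in adjusted p above 0.05 for PFKM (0.0525), PDHB (0.0656), PDHX (0.0523) and MPC1 (0.0633).

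Only 3 libraries per group limit these tests, and the exact permutation tests of the ratios cannot go below 0.1. ALDOC was left out of the fits by the expression filter. The size factors rest on fly reads that were not analysed here, and an error in 1 of them would shift all genes of that library.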
